A study of Mus musculus with 2 samples.

Results

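The insulin-like growth factor 1 (IGF-1) genes examined here were the ligand Igf1, its receptor Igf1r and the binding proteins Igfbp2, Igfbp3, Igfbp4, Igfbp5, Igfbp6 and Igfbp7. They were chosen by gene symbol, as the IGF-1 genes of stroma, fat and mesothelium, and all 8 were found among the 24346 genes listed for each library. RNA-seq of whole omenta gave their transcript levels. The omentum is an apron of fat in the abdomen with embedded lymphoid clusters called milky spots. The experiment asks which omental transcripts differ once Aldh1a2+ fibroblastic reticular cells (FRCs) are ablated. These cells are a stromal population that makes retinoic acid and uses the promoter of Postn. WT mice were compared with Postn-DTR mice, which are heterozygous C57BL/6 mice with a diphtheria toxin receptor placed in the Postn gene. Both groups, the controls included, received diphtheria toxin (DT), and omenta were taken 5 days later. The Postn promoter is also active in mesenchymal cells of other organs, so the ablation was not limited to the omentum by design. The sources used here give neither the age of the mice nor whether a library came from a single mouse or a pool.

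Each genotype was represented by 1 library. The spread between replicates is therefore unknown, no test was possible, and genotype cannot be told apart from any other difference between the mice or libraries. Values are FPKM, which scale fragments to transcript length and library size, so that levels can be compared between genes. How library size was set is not given in the sources used here, and the fragment numbers and intervals below assume the mapped total. A difference is log2(FPKM + 1) of Postn-DTR less that of WT, called the change, and a gene is said to have fallen or risen only when this change reached 2-fold. Among 13127 genes whose mean FPKM reached 1, 410 (3.12%) fell and 509 (3.88%) rose by this rule, with a median change of 0.02. The Postn-DTR library held more summed FPKM, at 671882 against 542190, and transcripts of pancreatic acinar enzymes made up 2.31% of the sum in WT (12506 FPKM) and 0.00304% in Postn-DTR (20.4 FPKM). Removing these 29 acinar genes and setting both libraries to the same total moved the median change by -0.30. Under this scaling (equal totals) 732 of 12930 genes fell and 294 rose. Equal-totals values are given for the 8 IGF genes, and for named pathway and marker genes where they change a direction or a call. The WT and Postn-DTR values of Postn itself were 58.3 and 16.2, and those of Aldh1a2 were 85.5 and 63.3. The toxin receptor was placed in the first coding exon of Postn, and the part of this altered allele in the Postn value was not tested. Adipoq (955.2 and 635.9) and the mesothelial gene Upk3b (211.6 and 181.9) were well above 0 in both libraries, as is usual for omentum. Xist, which marks female cells, was at 7.71 and 15.7, and the Y-linked gene Ddx3y at 10.3 and 3.66, so that both were present in each library and differed in opposite directions. The part of sex in the results that follow was not tested.

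IGF-1 is a secreted hormone related to insulin. It is made by the liver under the control of growth hormone, and also locally by fat, stromal cells and macrophages. It acts through a receptor tyrosine kinase, the product of Igf1r, which signals through IRS adaptor proteins, PI3 kinase and AKT to promote growth and survival. In blood and tissue most IGF is held by binding proteins, which prolong its life and limit its access to the receptor until proteases cut them. Binding protein 7 binds IGF only weakly and is known chiefly as a product of vessels.

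The ligand came from Igf1 (ENSMUSG00000020053, chromosome 10, 87858265 to 87937047 on GRCm38, which is mm10). Its FPKM was 44.9 in WT and 27.2 in Postn-DTR. The WT library was the higher, by 1.65-fold, and the change of -0.70 stayed short of 2-fold. Of all genes compared, 6.40% had a more negative change. The values corresponded to about 7151 and 4489 fragments, which gave a Postn-DTR to WT ratio of 0.607 with an exact 95% binomial interval of 0.584 to 0.630. This interval, like those that follow, covers counting error only and says nothing of the spread between mice. With equal totals the Igf1 change was -1.03, so that it passed 2-fold under this scaling. The 3 genes nearest to Igf1 in log2(FPKM + 1) over the 2 libraries were Col6a5 (44.5 and 27.1), Aamdc (46.4 and 27.2) and Lbh (46.3 and 26.8). This likeness rests on 2 points per gene.

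The receptor gene Igf1r (ENSMUSG00000005533, chromosome 7, 67952257 to 68233668) had the lowest level of the 8. Its FPKM was 3.25 in WT and 4.24 in Postn-DTR, and 82.8% of the genes compared had a higher WT value. The Postn-DTR library was slightly higher, with a change of 0.30 that shrank to 0.03 with equal totals. The ratio of 1.30 rested on about 846 and 1142 fragments (interval 1.19 to 1.43). The nearest genes in level were Tmem38a (3.24 and 4.27), Irak1bp1 (3.27 and 4.26) and 2010204K13Rik (3.23 and 4.18). Igf1 and its receptor thus lay on opposite sides of 0, and the Igf1 to Igf1r ratio of FPKM, which does not depend on scaling between libraries, was 13.8 in WT and 6.43 in Postn-DTR.

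**Figure D1:**
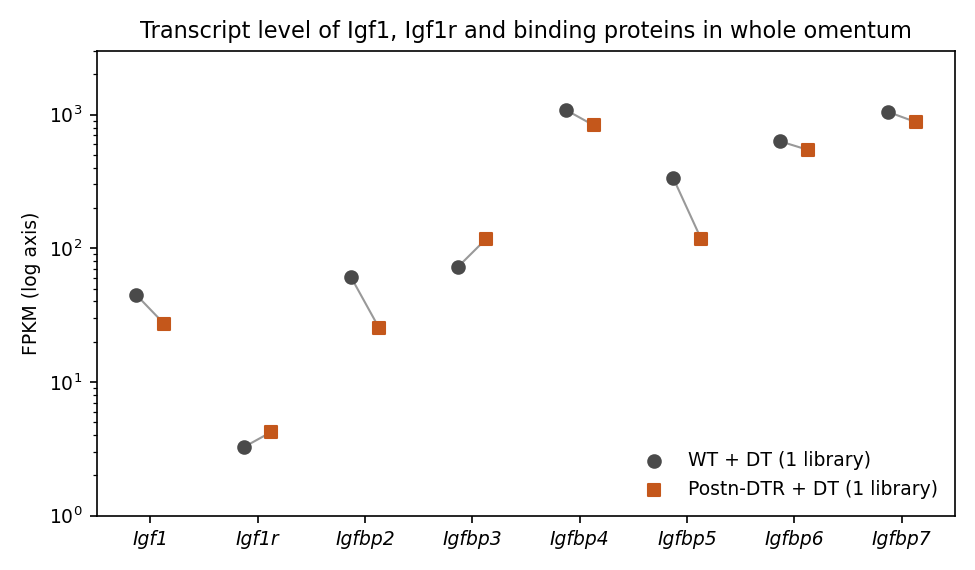
FPKM (log axis) of the 8 IGF genes in the WT library (circles) and the Postn-DTR library (squares), each 1 library 5 days after DT, with a line joining the 2 values of a gene. Igfbp5 and Igfbp2 show the steepest descents, whereas Igfbp3 and Igf1r are higher in Postn-DTR.

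Among the binding proteins the largest differences were found for a pair of neighbouring genes. Igfbp5 (ENSMUSG00000026185, chromosome 1, 72858065 to 72874865) encodes a binding protein that attaches to extracellular matrix. Its FPKM of 336.6 in WT stood against 118.0 in Postn-DTR, so that it fell 2.85-fold. The change was -1.505, and 1.23% of all genes compared had a more negative one. Igfbp2 (ENSMUSG00000039323, chromosome 1, 72824480 to 72852474) encodes a binding protein made by fat precursor cells and liver. It fell from 60.9 to 25.5, or 2.39-fold, with a change of -1.22 and 2.04% of genes more negative. The estimated fragments were 45440 and 16473 for Igfbp5 (ratio 0.350, interval 0.344 to 0.357) and 1568 and 679 for Igfbp2 (ratio 0.419, interval 0.382 to 0.459). Both genes kept a change of at least 2-fold under the alternative pseudocounts and scalings. The alternative filters leave the value of a gene as it is and could not alter this. With equal totals the changes were -1.84 and -1.55.

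Igfbp2 and Igfbp5 lie 5590 bases apart in the RefSeq annotation and face each other end to end. Of the nearest protein-coding genes, Rpl37a and Tns1 were not lower in Postn-DTR as deposited. Ankar and Tnp1 had no signal to compare, and Tns1 begins far from the pair, at 73910232. Rpl37a, a ribosomal protein gene whose reads may be shared with pseudogene copies, was at 886.8 and 1508, a change of 0.76, and Tns1 was at 72.3 and 75.3, a change of 0.06, while Ankar and Tnp1 were listed at 0 in both libraries. A second such pair, Igfbp1 and Igfbp3, lies on chromosome 11 with 3539 bases between the genes, and here Igfbp1 was listed at 0 in WT and at 0.0315 in Postn-DTR.

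Igfbp3 (ENSMUSG00000020427, chromosome 11, 7206086 to 7215498) encodes the main carrier of IGF in blood. Of the 6 binding protein genes chosen, it was the only one with a higher value in Postn-DTR, and this direction held under all 7 alternatives. Its FPKM was 73.0 in WT and 117.7 in Postn-DTR, 1.61-fold higher with an interval of 1.55 to 1.68 from about 3769 and 6287 fragments. The change of 0.68 did not reach 2-fold, and 7.63% of genes had a higher one. It was 0.34 with equal totals. Within the libraries, the ratio of Igfbp3 to Igfbp2 was 1.20 in WT and 4.61 in Postn-DTR, and the ratio of Igfbp5 to Igfbp3 was 4.61 and 1.002.

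The sequences just before the start sites of the genes that moved apart most are shown because Igfbp2 and Igfbp5 lie next to each other and both fell. They are the 100 bases before a RefSeq start on the strand of the gene, on GRCm38.p6, with capitals marking matches to 3 forms of a TATA box, spelled TATAAA or else TATATA or else TATTTAA, to the GC box GGGCGG and to the CCAAT box, on either strand. None of the matches shown overlapped. The last 19 bases for Igfbp5 lie in a GENCODE exon of that gene. The Igfbp3 window lies within the outer limits of its RefSeq gene, and none of its bases lie in a GENCODE exon of Igfbp3. The positions are chr1:72874866-72874965 (minus strand) for Igfbp5, chr1:72824380-72824479 (plus strand) for Igfbp2 and chr11:7213924-7214023 (minus strand) for Igfbp3.
Igfbp5: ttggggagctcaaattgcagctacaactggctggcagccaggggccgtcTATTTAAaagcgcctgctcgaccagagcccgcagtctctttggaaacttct
Igfbp2: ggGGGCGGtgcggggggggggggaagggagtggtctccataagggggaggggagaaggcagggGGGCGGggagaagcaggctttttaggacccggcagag
Igfbp3: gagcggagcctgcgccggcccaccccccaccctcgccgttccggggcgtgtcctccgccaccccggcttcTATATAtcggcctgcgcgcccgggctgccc

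The genes that fell together did not share these letters. Igfbp5 held TATTTAA beginning 51 bases before the start, Igfbp2 held GGGCGG at 98 and 37 bases, and Igfbp3 held TATATA at 30 bases. Over all 32851 promoters of the table, 1.504% held TATTTAA, 2.19% TATATA, 5.56% TATAAA, 24.7% GGGCGG and 18.9% CCAAT in the same window. The share of G and C was 55% for Igfbp5, which was also the median of all promoters, against 71% for Igfbp2 and 77% for Igfbp3. Of the other members, Igfbp4 held TATAAA at 28 bases, Igf1r and Igfbp7 held GGGCGG at 2 and 3 places, and Igfbp6 held CCAAT. The Igf1 window lies wholly in an annotated exon inside the gene and is not described. A match is a description of the letters and not evidence of a bound factor.

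The 3 most abundant binding protein genes differed least of the 6 as deposited, though not with equal totals, where Igfbp3 (0.34) differed least. Igfbp4 (ENSMUSG00000017493, chromosome 11, 99040005 to 99052655), whose product blocks IGF until the protease PAPP-A cuts it, was at 1084 in WT against 831.7 in Postn-DTR, a change of -0.38. Igfbp7 (ENSMUSG00000036256, chromosome 5, 77349240 to 77408045) was at 1048 and 879.0, a change of -0.25. Igfbp6 (ENSMUSG00000023046, chromosome 15, 102144186 to 102149512), whose product prefers IGF-2, was at 629.5 and 542.8, a change of -0.21. All 3 were lower in Postn-DTR by between 1.16-fold and 1.30-fold, and 16.2%, 24.2% and 27.2% of all genes compared had a more negative change. With equal totals their changes were -0.73, -0.60 and -0.56. Counting error was small, with about 91548 and 72624 fragments for Igfbp4, but a difference of this size between 2 libraries has no replicate check.

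**Figure D2:**
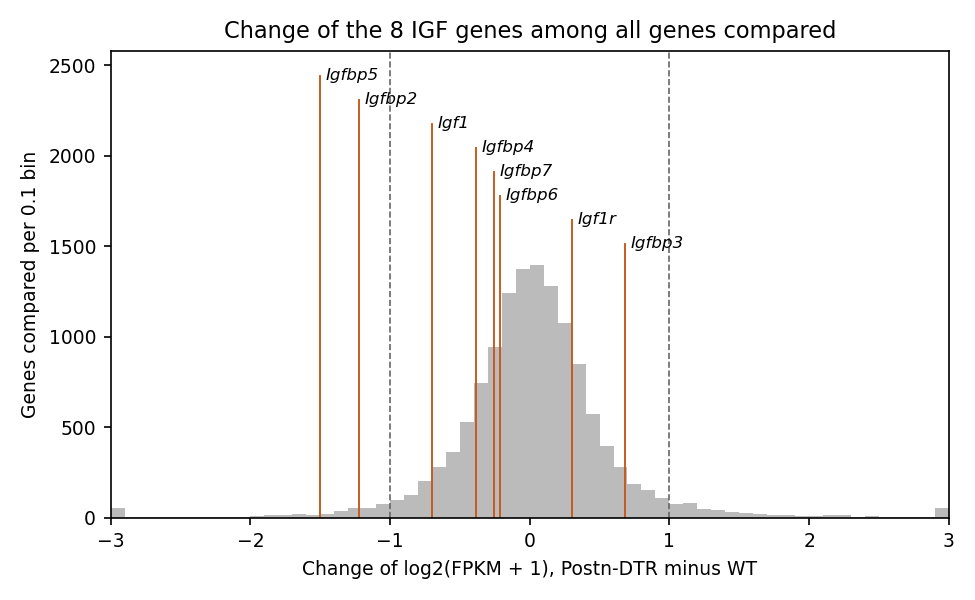
Histogram of the change in log2(FPKM + 1) (Postn-DTR less WT) for the 13127 genes compared, in bins of 0.1 with genes beyond the axis placed in the end bins. Lines mark the 8 IGF genes and dashed lines mark 2-fold. Igfbp5 and Igfbp2 lie beyond 2-fold on the lower side and no member does so on the higher side.

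In all, 2 of the 8 genes fell and 0 rose, against 3.12% and 3.88% of all genes compared, and both that fell belong to the chromosome 1 pair. The other 6 stayed within 2-fold, 4 of them lower and 2 higher in Postn-DTR. The median change of the 8 was -0.32, beside 0.02 for all genes compared. It was -0.66 with equal totals, beside a median of -0.28 for all genes under that scaling. The changes spanned 2.19 on the log2 scale, and the direction of each of the 8 was the same under all 3 alternative scalings. Pseudocounts and filters cannot reverse a direction.

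Because FPKM accounts for length, the binding protein transcripts of a library can be summed. The sum was 3232 in WT and 2515 in Postn-DTR, or 0.596% and 0.374% of all FPKM. Igfbp4 and Igfbp7 led in both libraries, and they traded places, with an Igfbp4 to Igfbp7 ratio of 1.04 in WT and 0.946 in Postn-DTR. Together with Igfbp6 they held 85.4% of the sum in WT and 89.6% in Postn-DTR. The share of Igfbp5 was 10.4% in WT and 4.69% in Postn-DTR, and that of Igfbp2 was 1.88% and 1.01%. Igfbp3 went the other way, from 2.26% to 4.68%, so that Igfbp5 and Igfbp3 had nearly equal levels in Postn-DTR. These shares do not depend on the scaling between libraries. For each unit of Igf1 FPKM there were 72.0 units of binding protein FPKM in WT and 92.3 in Postn-DTR.

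**Figure D3:**
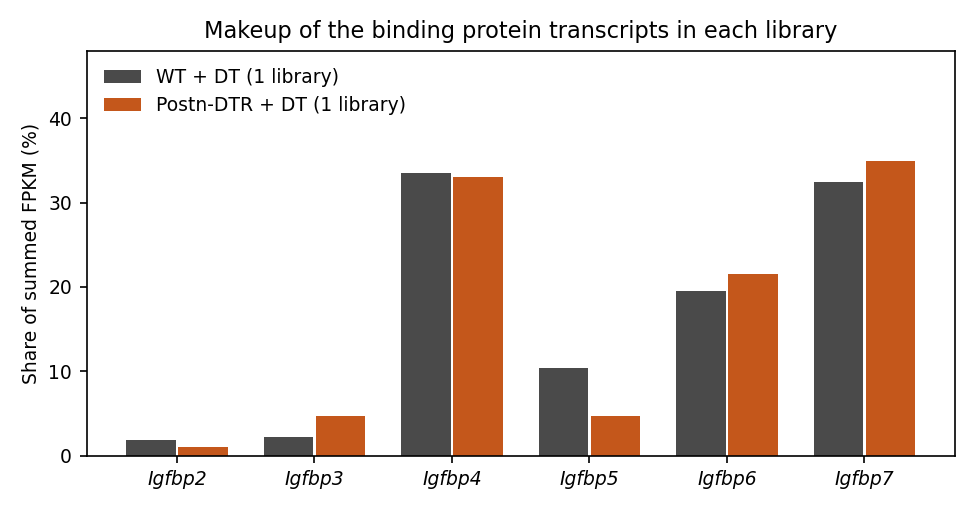
Share of the summed FPKM of the 6 binding protein genes held by each gene, in percent, for the WT (dark bars) and Postn-DTR (orange bars) libraries, 1 each. The share of Igfbp5 is 10.4% in WT and 4.69% in Postn-DTR, and that of Igfbp3 is 2.26% and 4.68%.

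Other genes of the pathway were examined by role, in 4 lists with 43 genes. Of these 38 passed the minimum level, 1 fell and 2 rose, which is near the 3.12% and 3.88% of all genes compared, and their median change was -0.09. With equal totals 4 fell and 0 rose, beside 732 fallen and 294 risen of the 12930 genes compared under that scaling. Among the other ligand, receptors and carriers, the gene that fell was Igfals, which encodes the acid-labile subunit that joins IGF and Igfbp3 protein in blood. It was at 16.2 in WT against 4.30 in Postn-DTR, a change of -1.70, and stood at about 914 and 251 fragments. Its direction was thus opposite to that of Igfbp3. Igf2, the other IGF ligand, was at 7.89 and 9.96, a change of 0.30 that became -0.0059 with equal totals. The Igf1 to Igf2 ratio was 5.69 in WT and 2.73 in Postn-DTR. Igf2r, which takes up and degrades IGF-2, was at 12.4 and 10.9, and Insr, the insulin receptor, at 9.13 and 12.5. The Insr to Igf1r ratio was nearly the same in both libraries, at 2.81 and 2.96.

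None of the 5 proteases and protease inhibitors compared passed 2-fold on the log2(FPKM + 1) scale, although 4 of them were lower in Postn-DTR and their median change was -0.72. Htra1, a secreted serine protease that cuts binding protein 5, came closest on that scale, whereas by the ratio of FPKM Stc2 was 2.03-fold and Htra1 1.98-fold lower. It was at 157.6 in WT against 79.5 in Postn-DTR, a change of -0.98 that reached -1.32 with equal totals. Adam12, a metalloprotease known to cut binding proteins 3 and 5, was at 4.71 and 2.47, and Stc2, an inhibitor of PAPP-A, at 3.86 and 1.90. Adam9, another metalloprotease, was at 33.9 and 48.2. Pappa itself, at 0.714 and 1.07, was under the minimum level.

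In the growth hormone axis, which drives Igf1 in liver and fat, 1 of 7 genes rose and none fell. Ghr, the growth hormone receptor, had the highest level of the list, at 176.1 in WT against 119.0 in Postn-DTR, a change of -0.56. Stat5a (18.8 and 13.9) and Stat5b (19.1 and 15.7), the transcription factors that act downstream of it, were also lower by less than 2-fold. Socs2, a feedback inhibitor of growth hormone signalling that STAT5 induces, rose from 14.1 to 30.7, a change of 1.07. The change of Socs2 was 0.97 at an equal 75th percentile and 0.74 with equal totals, so that it no longer passed 2-fold.

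Of the 22 genes of IGF-1 receptor signalling, 0 fell, 1 rose and the median change was -0.05. The 2 main receptor adaptors differed in opposite directions. Irs2 rose from 7.25 to 16.8, a change of 1.11, which was 0.79 with equal totals. Irs1 was at 4.80 and 2.04, 2.36-fold lower by the ratio of FPKM. On the log2(FPKM + 1) scale its change was -0.93, short of 2-fold, and it was -1.15 with equal totals. The Irs2 to Irs1 ratio was 1.51 in WT and 8.26 in Postn-DTR. Pik3r1, the regulatory subunit of PI3 kinase, was at 39.0 and 23.2, a change of -0.72, which was -1.05 with equal totals. Irs1 and Pik3r1 were thus the 2 of the 22 genes that fell under that scaling. Akt1 was at 84.4 and 122.2 and Akt2 at 112.8 and 90.2. Eif4ebp1, a translational repressor under mTOR control, had the highest mean level of the list, at 120.8 and 154.8. Foxo3, a transcription factor that AKT keeps out of the nucleus, was at 5.77 and 11.3, a change of 0.87.

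**Figure D4:**
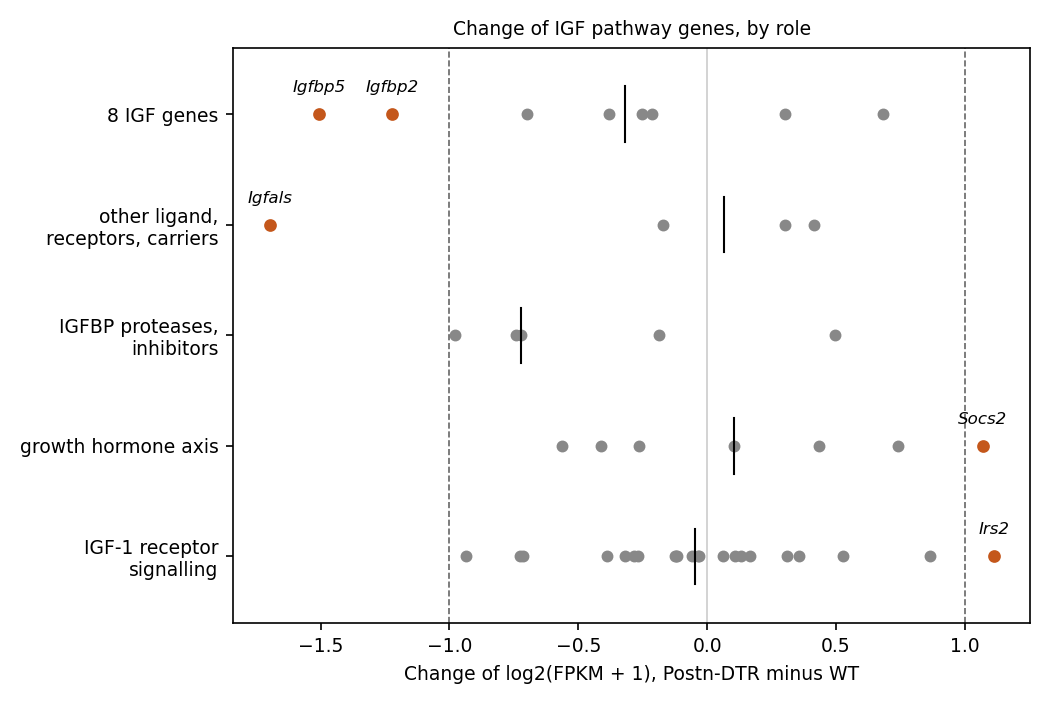
Change of log2(FPKM + 1) (Postn-DTR less WT) for the 8 IGF genes and for the genes compared in 4 lists of other pathway genes, with 1 point per gene, a black bar at the median of each list and dashed lines at 2-fold. Named orange points passed 2-fold. They are Igfbp5, Igfbp2 and Igfals on the lower side and, short of 2-fold with equal totals, Socs2 and Irs2 on the higher side.

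Cell type markers are given beside these genes, because in whole tissue fewer cells of a type and less RNA per cell cannot be told apart. Markers of pericytes and smooth muscle, cells that are known to express Igfbp5 and Igfbp7, showed a median change of -0.84. Of the 8 markers 3 fell, namely Rgs5 (30.6 and 2.56), Notch3 (21.3 and 3.53) and Pdgfrb (41.3 and 17.3), whereas Acta2 (94.6 and 108.9) and Tagln (127.7 and 151.4) were higher as deposited but turned to -0.14 and -0.097 with equal totals. The summed FPKM of the 8 was 423.4 in WT and 348.0 in Postn-DTR. With equal totals all 8 were lower, 6 fell and the median was -1.14. Fibroblast markers had a median change of -0.26, with 5 of 8 lower. Their sum, dominated by Dcn (1875 and 2152), was 3056 and 2996. Only Dpt fell, from 236.9 to 67.3. Pi16 (25.2 and 29.0) and Dpp4 (16.3 and 12.8), markers of adventitial fibroblasts, which are known to express Igfbp6, stayed within 2-fold. With equal totals all 8 fibroblast markers were lower, Pi16 included, with a median of -0.58 and a Postn-DTR sum of 2362. Of the Aldh1a2+ FRC markers, 6 of 7 were compared, and their median was -0.16. Postn was the only one that fell and Ptx3 (1.40 and 6.30) the only one that rose. With equal totals the median was -0.47, 5 of the 6 were lower and Ace turned from 0.28 to -0.053. Phex, the marker not compared, was under the minimum level at 0.340 in WT and 0.0137 in Postn-DTR. Endothelial markers, of cells known to express Igfbp7 and Igfbp3, summed to 636.0 and 565.8, and 0 of 8 passed 2-fold. With equal totals their Postn-DTR sum was 446.0, 7 of 8 were lower, 1 fell (Kdr, -1.001) and the median was -0.51. Pecam1 turned from 0.0069 to -0.33 and Emcn from 0.26 to -0.073 under that scaling.

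Macrophages are a local source of IGF-1, and 7 of 8 of their markers were higher in Postn-DTR while Igf1 was lower. Their sum was 2017 in WT and 3966 in Postn-DTR. The median change was 0.91 and 3 of 8 rose, among them Itgam (46.8 and 251.9) and Adgre1 (41.1 and 137.6). With equal totals 7 were still higher, 3 rose and the median was 0.56. These marker values are transcript levels and not cell counts. The paper counted omental cells at the same time after DT. It reports macrophage numbers as unaltered in Postn-DTR mice, with T cells and conventional B cells reduced. Adipocyte markers had a median change of -0.57, with 6 of 8 lower and Pparg the only one that fell. Their sum, dominated by Fabp4, was 8129 and 8860 as deposited, but 6985 in Postn-DTR with equal totals, where 3 fell and the median was -0.91. Mesothelial markers summed to 529.5 and 582.1, with 6 of 8 higher and Lrrn4 the only one that fell. With equal totals the Postn-DTR sum was 458.9, Wt1 and Krt19 turned to lower and 4 of 8 were higher. B and T cell markers summed to 494.2 and 343.4, with all 8 lower and 4 fallen, or 6 with equal totals. No marker of these 8 lists was listed at 0 in either library. The part of any of these cell types, or of the acinar transcripts in WT, in the differences of the IGF genes was not tested.

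**Figure D5:**
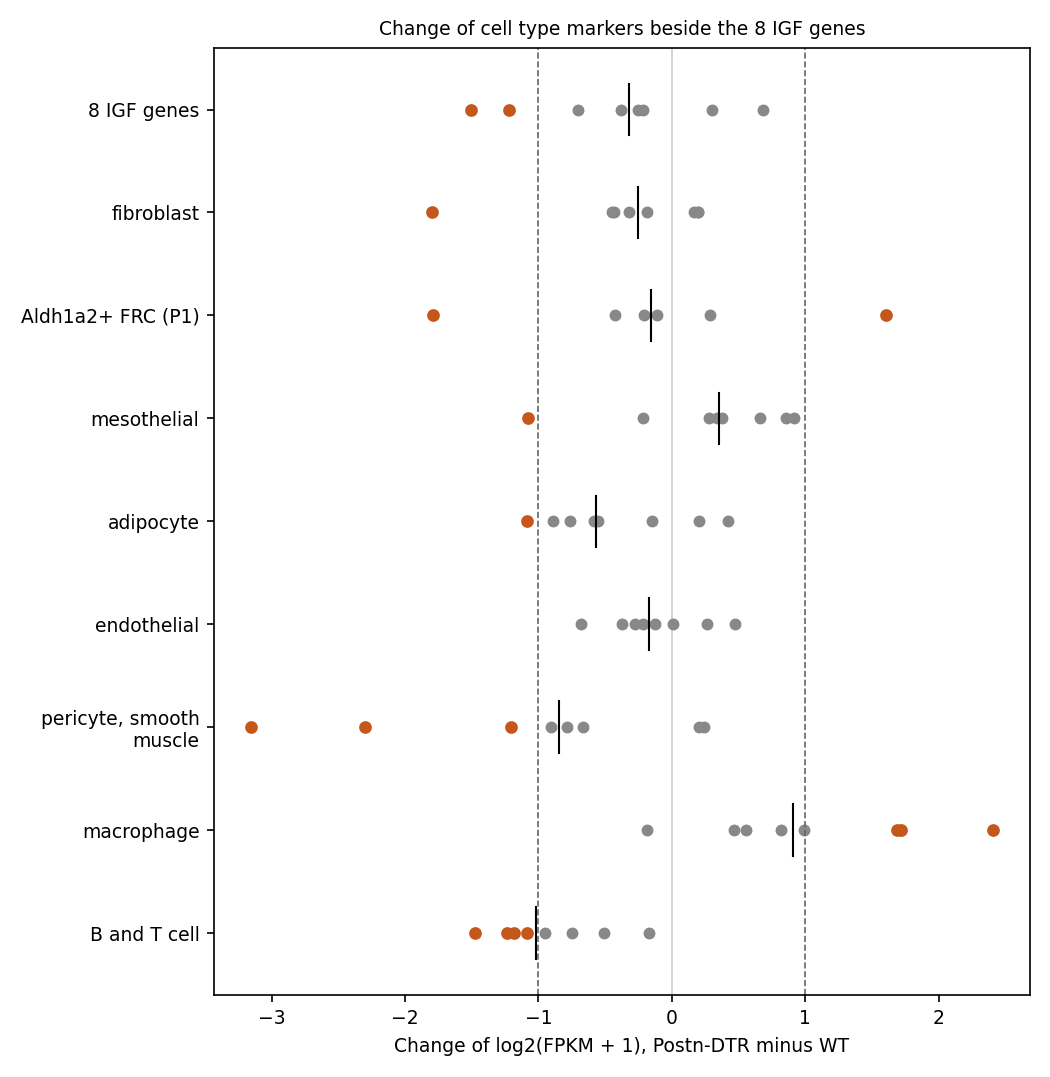
Change of log2(FPKM + 1) (Postn-DTR less WT) for the 8 IGF genes and for the markers compared in 8 cell type lists, with 1 point per gene, orange beyond 2-fold, a black bar at the median of each list and dashed lines at 2-fold. As deposited, the pericyte and smooth muscle list has a median of -0.84 with 3 fallen genes, and the macrophage list a median of 0.91 with 3 risen genes.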

How the data were processed

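RNA-seq of whole omentum was available for 2 libraries, 1 from WT and 1 from Postn-DTR mice, grouped by their genotype labels. Stranded mRNA libraries had been made from miRNeasy-purified total RNA, per the labels. The authors deposited FPKM with 1 value per gene symbol. The submitters' processing notes name TopHat2 2.1.1, Bowtie2 2.2.8, SAMtools 0.1.18 and Cuffdiff 2.2.1 and the genome build mm10. The annotation, the FPKM scaling option and the use of strand in counting are not given in the sources used here, so genes that overlap others or share reads are uncertain.

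FPKM were used as deposited. The change was log2(FPKM + 1) of Postn-DTR less that of WT, a scale on which differences of low genes are understated. Genes were compared where their mean FPKM reached 1. Positions came from RefSeq on GRCm38.p6, identifiers from GENCODE M21, and all 8 members matched. Depth was estimated from the steps of low FPKM under the assumption that FPKM were scaled to mapped fragments (WT, 23250000 fragments, and Postn-DTR, 24050000 fragments), and fragments per gene from the longest coding transcript. Both are approximate, since 66.7% and 66.3% of low values came out within 0.05 of a whole fragment. The intervals are exact (Clopper-Pearson) 95% intervals.

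The named genes were the 8 members, the pathway genes beyond 2-fold or with high levels in their list, the 3 genes nearest in level to Igf1 and Igf1r, and the markers. Adam12, Stc2, Pappa, Stat5a, Stat5b, Irs1, Pik3r1, Akt1, Akt2, Foxo3, Insr, Igf2, Xist, Ddx3y and the genes flanking the binding protein pairs were named after their values were seen. Members and lists were chosen with earlier results of these data known. The steps were checked on simulated data. Computation used Python 3.11.15, numpy 2.4.6, pandas 2.3.3 and scipy 1.17.1.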

Additional observations from a re-analysis of the deposited data

How the results depend on the processing

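With 1 library per genotype no replicate could be left out. No paired analysis was possible because the groups share fewer than 2 replicate numbers. The alternatives were pseudocounts of 0.1 and 5, no filter or a mean FPKM of at least 10, 3 scalings, and thresholds of 1.5-fold and 3-fold. The 2 fallen members were 3 with equal totals (Igf1 added) and at 1.5-fold, and 0 at 3-fold. The count of risen members was 0 except at 1.5-fold, where it was 1 (Igfbp3). The median change of the members was -0.38 with a mean FPKM of at least 10, which leaves out Igf1r, -0.66 with equal totals and -0.42 at an equal 75th percentile. Fallen genes of the other pathway lists numbered 1 as reported, 2 with a pseudocount of 0.1, 3 at an equal 75th percentile, 4 with equal totals (Igfals, Htra1, Irs1 and Pik3r1) and 7 at 1.5-fold. Risen genes numbered 2 as reported, 0 with a pseudocount of 5, with equal totals and at 3-fold, 1 at an equal 75th percentile and 4 at 1.5-fold. The marker lists were also read with equal totals, an alternative chosen after seeing the data, and their medians all moved down. None of the 55 member values under an alternative changed sign, and 18 moved by more than counting error. Only the 3 scalings could change a sign, since a pseudocount keeps it and a filter leaves the value as it is. A larger pseudocount, fewer genes tested and a higher threshold lower such counts by construction. Over all 13127 genes compared, fallen and risen genes were 410 and 509 as reported. They were 643 and 642 at pseudocount 0.1, 168 and 287 at pseudocount 5, and 434 and 488 when centred on the median change. At 1.5-fold they were 1160 and 1294, and at 3-fold 153 and 199. Other settings changed the number of genes compared. The counts were 422 and 526 of 17969 without a filter and 173 and 303 of 7207 above the higher FPKM minimum. With equal totals they were 732 and 294 of 12930, and at an equal 75th percentile 489 and 433 of 13075. Depth does not limit the members, whose lowest estimate was 846 fragments, but it does limit Igfbp1, at 0 and about 1 fragment.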
